A study of Mus musculus with 16 samples.

Results

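The genes described here are 40 mouse genes that act in mitosis, from the kinases that start it to the proteins that part the daughter cells. They were taken from a list of gene symbols, matched to Ensembl gene identifiers of mm10, and 40 of 40 were found among the 54453 genes of the series and passed the filter on low values that 15278 protein-coding genes passed. The rule by which they are matched uses no measured value. RNA was measured in 16 immortalised lines of C57BL/6J mouse embryonic fibroblasts (MEFs), cultured connective tissue cells of the embryo. MEF-1 and MEF-2, the parental lines, came from sibling embryos at E13.5 and became immortal by repeated passaging through crisis, and from each of them 7 single cells, sorted by flow cytometry, were grown into clonal lines 1 to 7. MEF-1 was male and MEF-2 female by the study's account. No line was treated, and all lines were harvested at the same confluency by the labels. Each line has 1 library, so the 7 clonal lines of a set share an embryo and a parental line, and p-values measure the spread between clonal lines of 2 embryos only. Embryo, sex, passage history and chromosome number cannot be told apart between the sets.

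In dividing cells, the kinase Cdk1 with its B-type cyclins starts mitosis, microtubules attach to the chromosomes at kinetochores, and a checkpoint holds back the separation of sister chromatids until all are attached. The anaphase-promoting complex then marks securin and the cyclins for destruction, and the daughter cells are parted by a contractile ring. Most of the genes involved are transcribed in the G2 phase of the cell cycle and are kept silent in resting cells, so that their RNA is widely used as a mark of dividing cultures.

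Values are “regularised log” (rlog) values on the log2 scale, 1 per gene and line, which the authors made from normalised read counts by pulling the value of a line towards the gene's own average. A difference of 1 in these shrunken values is a factor of 2, and the change before shrinkage can be larger. Levels are not compared between genes, as the values are not per transcript length, and the number of reads is unknown. The median of the 2855 genes with an average below −2.2 ran from −2.285 to −2.279 over the lines. How this level depends on the size of a library was not tested. The median over all genes tested ran from 10.50 in MEF-1 clonal line 1 to 10.60 in MEF-2 clonal line 2. All 13 fibroblast markers had an average above 0, from 4.74 for Thy1 to 20.88 for Col1a1. So had 4 of 5 epithelial, 4 of 5 endothelial, 2 of 6 blood, 1 of 4 muscle and 2 of 3 neural markers. The matrix genes Dcn and Lum did not overlap between the sets. They had 9.63 to 12.24 and 9.10 to 11.88 in the clones of MEF-1. In those of MEF-2 they had 5.77 to 7.24 and 5.60 to 8.70. The other fibroblast markers overlapped and did not move one way. Thy1 ran from 2.72 to 3.43 in the MEF-1 clones and from 3.42 to 8.02 in the MEF-2 clones. Pdgfra ran from 14.05 to 15.41 and from 12.13 to 14.45. Markers of other cell types had averages of at most 7.44 (epithelial, Cdh1), 4.94 (endothelial, Tek), 5.03 (blood, Cd68) and 3.44 (muscle, Des), with Hbb-bt, Gata1 and Myf5 listed at 0 in every line. Of the 3 neural markers, Tubb3, which fibroblasts can also express, was lower in every MEF-1 clone (9.48 to 10.76) than in any MEF-2 clone (11.66 to 12.96). Sox2 reached 7.46 in a MEF-1 clone and at most 1.67 in a MEF-2 clone, with overlap, and Sox10 was below 0 in all clones. The part of these markers in the results below was not tested.

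The first comparison asked whether the mitosis genes differ between clones of the MEF-1 and the MEF-2 embryo. All 40 were higher in the MEF-2 clonal lines. The difference, as MEF-2 minus MEF-1, ran from 0.38 for Pttg1 to 1.30 for Cdc25c on the log2 scale, with a median of 0.92, or 1.90-fold, while the median over all genes tested was −0.0044. In limma, with Benjamini-Hochberg adjustment over 15278 genes, the adjusted p-values of the 40 genes lay between 0.000198 for Kif20a and 0.0378 for Cenpa. The sets differed widely in all genes, of which 56.1% were called, 27.5% as higher and 28.6% as lower in MEF-2. The count of 40 higher and 0 lower mitosis genes is to be read beside these shares. A difference of at least 0.38 was found for 19.2% of all genes, and one of at least 0.92 for 6.14%. Since RNA came from whole cultures, fewer cells in mitosis and less RNA per such cell cannot be told apart.

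**Figure D1:**
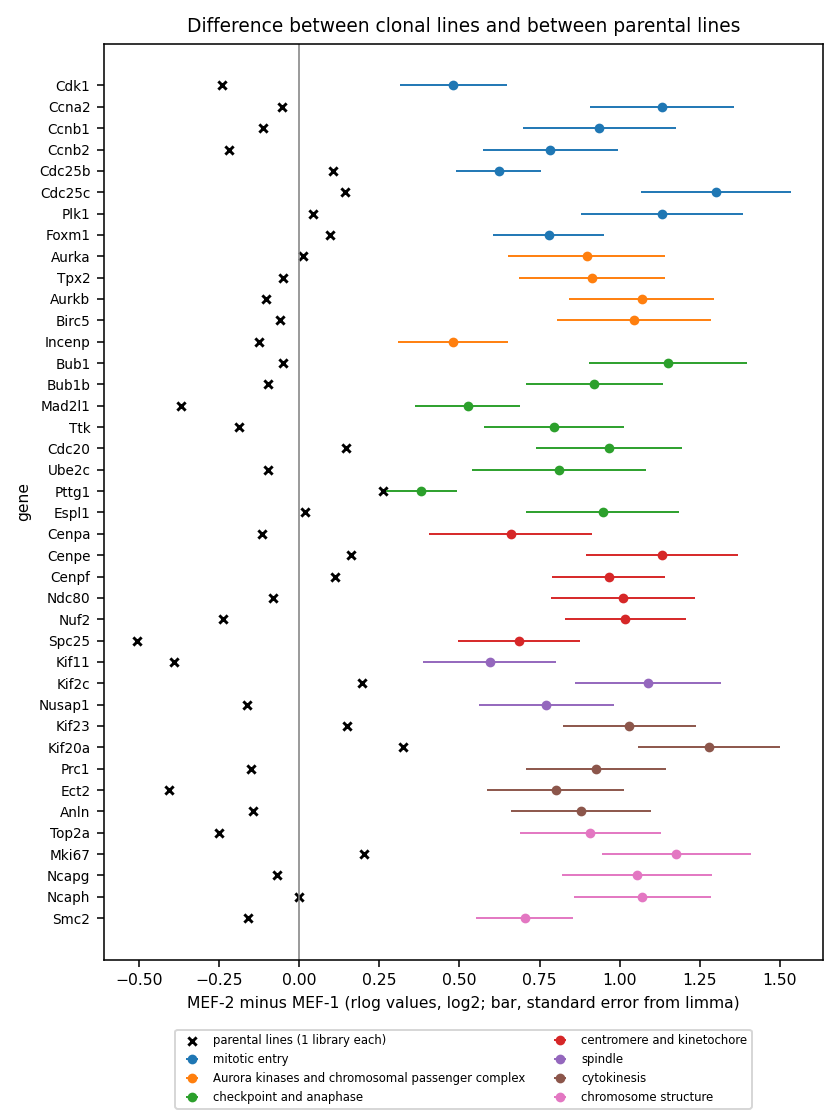
Difference between MEF-2 and MEF-1 for each of the 40 mitosis genes, coloured by role. Dots are MEF-2 minus MEF-1 means of 7 clonal lines each (rlog values, log2) with the standard error from limma as bars, and crosses are the difference of the parental lines, with 1 library each. The dots lie between 0.38 and 1.30, and the crosses between −0.51 and 0.32.

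Among the 8 genes of mitotic entry the median difference was 0.86. Cdc25c, a phosphatase that activates Cdk1, had values of 7.34 (lowest), 8.16 (median) and 8.93 (highest) in the 7 MEF-1 clonal lines and of 9.00, 9.65 and 10.04 in the 7 MEF-2 clonal lines. The sets did not overlap, although MEF-1 clonal line 5 came within 0.07 of the lowest MEF-2 line. The difference of 1.30 (standard error 0.23, adjusted p = 0.000271, limma) is 2.46-fold. Plk1, the polo-like kinase that acts at entry and at most later steps, had values of 9.75, 10.65 and 11.77 in MEF-1 and of 11.22, 11.78 and 12.24 in MEF-2. Here MEF-1 clonal line 5, the highest of its set, lay within the MEF-2 range, and the other 6 lay below it. The difference was 1.13 (standard error 0.25, adjusted p = 0.00155). Cyclin A2 (Ccna2) differed by 1.13 and cyclins B1 and B2 (Ccnb1, Ccnb2), the partners of Cdk1 in mitosis, by 0.94 and 0.78. Foxm1, a transcription factor that drives many G2 genes, differed by 0.78, and Cdc25b, a further activating phosphatase, by 0.62. Cdk1 itself had the smallest difference of the group, 0.48 (standard error 0.17, adjusted p = 0.0229).

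Aurora kinases and the chromosomal passenger complex, which correct faulty attachments at centromeres, had a median difference of 0.91 over 5 genes. Aurkb, the kinase of the complex, had values of 9.23, 10.10 and 11.08 in MEF-1 and of 10.65, 11.12 and 11.43 in MEF-2. Again line 5 of MEF-1 alone reached into the MEF-2 range. The difference was 1.07 (standard error 0.23, adjusted p = 0.00107). Survivin (Birc5), a partner of Aurkb in the complex, differed by 1.05. Aurka, the kinase at the spindle poles, and its activator Tpx2 differed by 0.90 and 0.91. Incenp, the scaffold of the passenger complex, had the smallest difference of the 5, 0.48 (standard error 0.17, adjusted p = 0.0268), from values of 11.05, 11.53 and 12.40 in MEF-1 and of 11.76, 12.17 and 12.32 in MEF-2. Lines 5 and 7 of MEF-1 lay within or above the MEF-2 range. Incenp lies on chromosome 19, and with the chromosome medians taken away its difference was 0.84.

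For the 8 genes of the spindle checkpoint and of anaphase the median difference was 0.87. Bub1, a checkpoint kinase at the kinetochore, had values of 9.21, 9.95 and 11.01 in MEF-1 and of 10.49, 11.33 and 11.67 in MEF-2, a difference of 1.15 (standard error 0.25, adjusted p = 0.00115). All MEF-1 clonal lines other than line 5 were below the lowest MEF-2 line. Bub1b, which encodes the checkpoint protein BubR1, differed by 0.92, the checkpoint kinase Ttk by 0.79 and Mad2l1, which holds Cdc20 inactive, by 0.53. Cdc20, the activator of the anaphase-promoting complex, differed by 0.97. Ube2c, the ubiquitin-conjugating enzyme of that complex, covered the widest range of all 40 genes within a set, 2.05 from MEF-1 clonal line 1 to line 5. Its values were 9.18, 10.07 and 11.23 in MEF-1 and 10.26, 10.98 and 11.56 in MEF-2, so that lines 5, 6 and 7 of MEF-1 overlapped with MEF-2. The difference was 0.81 (standard error 0.27, adjusted p = 0.0193). Separase (Espl1), the protease that opens the cohesin ring, differed by 0.95.

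Pttg1, which encodes securin, the inhibitor of separase, behaved apart from the other genes and is described here for that reason, after its values had been seen. The gene (ENSMUSG00000020415) lies on the minus strand of chromosome 11 from 43420250 to 43426251 in mm10. MEF-1 clonal lines 1 to 7 had values of 9.64, 9.92, 9.61, 9.37, 9.05, 9.61 and 9.51. MEF-2 clonal lines 1 to 7 had values of 9.75, 9.97, 10.07, 9.94, 9.76, 9.88 and 10.03. Line 5 was thus the lowest of its set, where it was the highest for the 39 other genes, and line 2 was the highest and reached into the MEF-2 range. The difference of 0.38 (standard error 0.11, adjusted p = 0.0093) was the smallest of the 40.

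The 6 centromere and kinetochore genes had a median difference of 0.99. Cenpe, a kinesin that carries chromosomes to the spindle equator, had values of 10.84, 11.62 and 12.72 in MEF-1 and of 12.36, 12.95 and 13.22 in MEF-2. Only line 5 of MEF-1 reached the MEF-2 range, and the difference was 1.13 (standard error 0.24, adjusted p = 0.000911). Ndc80, Nuf2 and Spc25, subunits of the complex that grips microtubules, differed by 1.01, 1.02 and 0.69, and Cenpf, a large protein of the outer kinetochore, by 0.97. Cenpa, the histone H3 variant that marks centromeres, differed by 0.66 (standard error 0.25, adjusted p = 0.0378). Its values were 9.62, 10.43 and 11.49 in MEF-1 and 10.65, 11.17 and 11.62 in MEF-2, and line 7 as well as line 5 of MEF-1 lay within the MEF-2 range.

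The 3 spindle genes had a median difference of 0.77. Kif2c, a kinesin that takes microtubules apart at centromeres, had values of 9.34, 10.08 and 11.09 in MEF-1 and of 10.62, 11.26 and 11.69 in MEF-2, with line 5 of MEF-1 alone inside the MEF-2 range. The difference was 1.09 (standard error 0.23, adjusted p = 0.000917). Nusap1, which bundles microtubules around the chromosomes, had values of 9.55, 10.33 and 11.32 in MEF-1 and of 10.70, 11.08 and 11.26 in MEF-2. Line 5 of MEF-1 was above all 7 MEF-2 lines and the other 6 were below all of them, and the difference was 0.77 (standard error 0.21, adjusted p = 0.0061). Kif11, the kinesin that pushes the spindle poles apart, had values of 11.04, 11.80 and 12.75 in MEF-1 and of 11.97, 12.38 and 12.57 in MEF-2. It too had line 5 above all MEF-2 lines, and line 7 just above the lowest of them, with a difference of 0.59 (standard error 0.21, adjusted p = 0.0242).

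The 5 genes of cytokinesis had a median difference of 0.93. Kif20a, a kinesin of the central spindle, had values of 10.44, 11.41 and 12.02 in MEF-1 and of 12.17, 12.76 and 13.13 in MEF-2. The sets did not overlap, and the difference was 1.28 (standard error 0.22, adjusted p = 0.000198), or 2.43-fold. Kif20a overlaps Cdc23 on the other strand. Prc1, which cross-links the microtubules of the central spindle, had values of 10.80, 11.57 and 12.56 in MEF-1 and of 11.97, 12.52 and 12.83 in MEF-2, with line 5 of MEF-1 inside the MEF-2 range and a difference of 0.93 (standard error 0.22, adjusted p = 0.00231). Kif23, a subunit of centralspindlin, differed by 1.03, anillin (Anln), a scaffold of the contractile ring, by 0.88 and Ect2, which activates RhoA at the cleavage site, by 0.80.

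In the 5 genes of chromosome structure the median difference was 1.05. Mki67, which encodes the proliferation marker Ki-67 that coats mitotic chromosomes (ENSMUSG00000031004, minus strand of chromosome 7 from 135689784 to 135716361), had values of 12.32, 13.11 and 14.28 in MEF-1. In MEF-2 they were 13.94, 14.39 and 14.58. Line 5 of MEF-1 was the only one to overlap, and the difference was 1.18 (standard error 0.23, adjusted p = 0.0006), or 2.26-fold. The condensin subunits Ncaph, Ncapg and Smc2 differed by 1.07, 1.05 and 0.70, and topoisomerase II alpha (Top2a), which untangles sister chromatids, by 0.91.

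Calls were lost for few genes when single lines were left out. Between 37 and 40 of the 40 genes were called without any 1 of the 14 lines, beside 8022 to 8669 of all 15278 genes tested. Cenpa lost its call without any of 10 lines (MEF-1 lines 1, 2, 3, 4 and 6 and MEF-2 lines 1, 2, 4, 5 and 7; adjusted p 0.0545 to 0.0774, limma), Incenp without any of 6 (MEF-1 lines 1, 2 and 3 and MEF-2 lines 2, 5 and 7; 0.0502 to 0.0564) and Kif11 without MEF-1 line 1 or 2 (0.0502 and 0.0513). With the parental lines added to their sets, 35 were called, and Cdk1, Mad2l1, Incenp, Cenpa and Kif11 were not (adjusted p 0.0691 to 0.0922, limma). Of all 15278 genes, 8476 were called in that setting.

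Whether the sets overlapped depended for most of the genes on MEF-1 clonal line 5, which was picked after its values had been seen. With all lines, every MEF-2 value lay above every MEF-1 value for 2 of the 40 genes, Cdc25c and Kif20a, compared with 12.3% of all genes tested. Both lie on chromosome 18, which was low in MEF-1 lines 1, 4 and 5. With the median of each chromosome taken away from each line, 0 of the 40 were free of overlap. The share over all genes was not taken for that setting. On the values without this correction, leaving out line 5 gave no overlap for 31 of the 40 and for 14.8% of all genes. The 9 others were Cdk1, Ccnb2, Incenp, Ttk, Ube2c, Pttg1, Cenpa, Spc25 and Kif11. Line 5 was at or above the lowest MEF-2 line for 37 genes and above every MEF-2 line for 4. Line 1 was below every MEF-2 line for all 40. Both lines were picked as the extremes for these same genes, and shares over all genes were not taken.

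**Figure D2:**
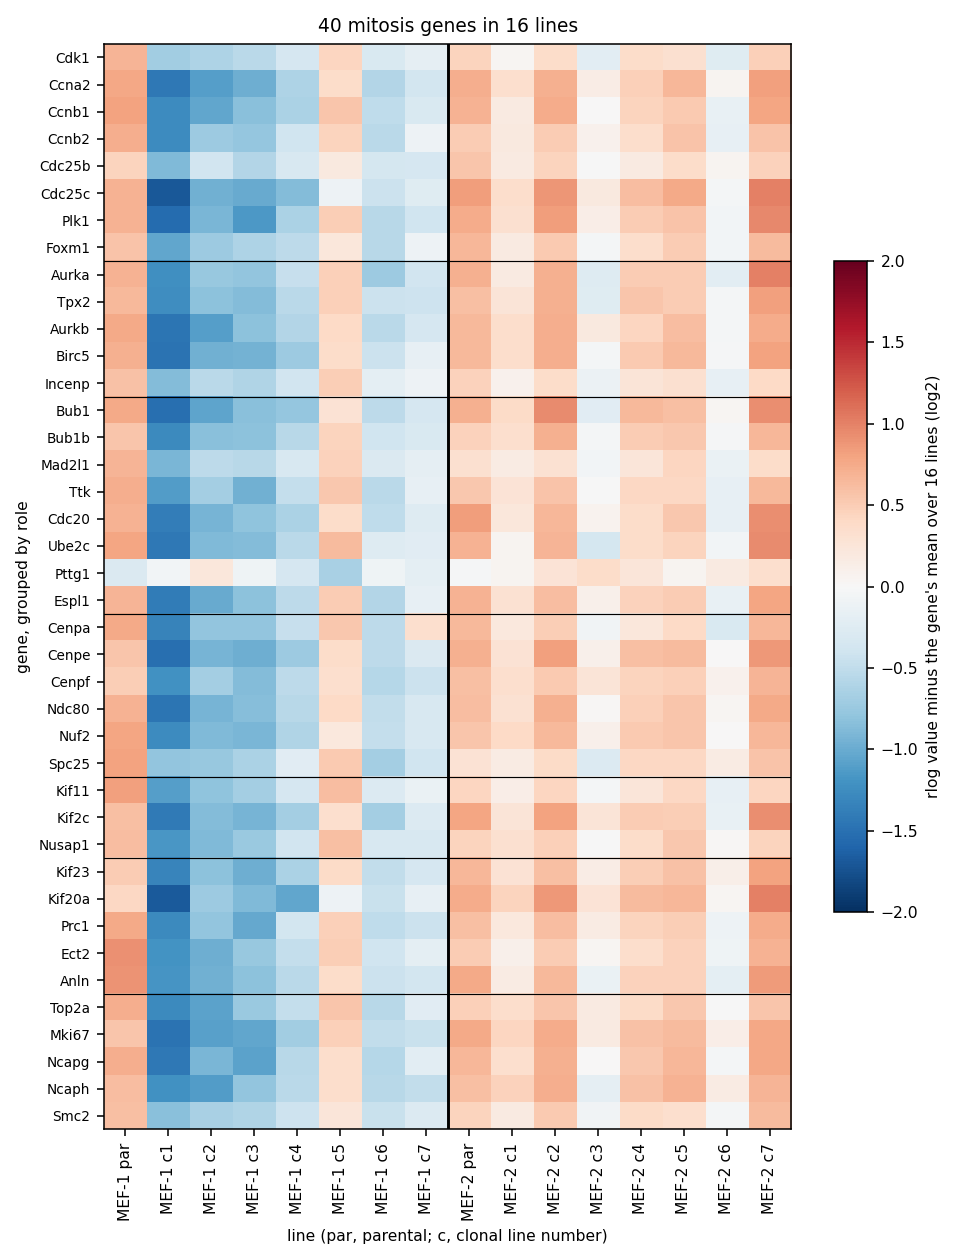
The 40 mitosis genes (rows, grouped by role between thin lines) in the 16 lines (columns, MEF-1 left and MEF-2 right of the thick line). Colour gives the rlog value minus the mean of the gene over 16 lines (log2, red higher). MEF-1 clonal line 1 is the lowest of its set for 39 genes and line 5 the highest for 39, and Pttg1 is the row that departs from the pattern.

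The lines at either end of a set were the same for most of the genes. Among the MEF-1 clonal lines, line 1 was the lowest for 39 of 40 genes and line 5 the highest for 39, each time with Pttg1 as the exception. Over all genes tested, line 1 was the lowest and line 5 the highest for 5.03%. The median deviation of the 40 genes from the mean of the set was −0.72 in line 1, −0.29 in line 2, −0.27 in line 3, 0.0052 in line 4, 0.98 in line 5, 0.083 in line 6 and 0.28 in line 7. For lines 1 to 7 of MEF-2 it was −0.10, 0.26, −0.32, 0.074, 0.16, −0.41 and 0.35. Line 7 of MEF-2 was the highest for 34 genes (24.6% of all genes) and line 6 the lowest for 27 (16.2%). The distance between lines 1 and 5 of MEF-1 was thus larger than any within MEF-2. For the 2855 genes with an average below −2.2, the median was −2.285 in line 1 and −2.284 in line 5. These are the lowest and the highest MEF-1 clonal line for the mitosis genes.

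Over the 7 clones of MEF-1, the median SD of a mitosis gene was 0.55, from 0.27 for Pttg1 to 0.66 for Cenpa. Genes with an average within 1 of that of a mitosis gene had a median SD of 0.153, and for the median mitosis gene 95.9% of them had a smaller SD. In MEF-2 the median SD was 0.298, from 0.125 for Pttg1 to 0.470 for Aurka, compared with 0.124 for genes of like average, of which 88.8% had a smaller SD. All 40 genes had the larger SD in MEF-1, as had 63.4% of all genes tested. Without line 5 the median SD in MEF-1 was 0.365.

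**Figure D3:**
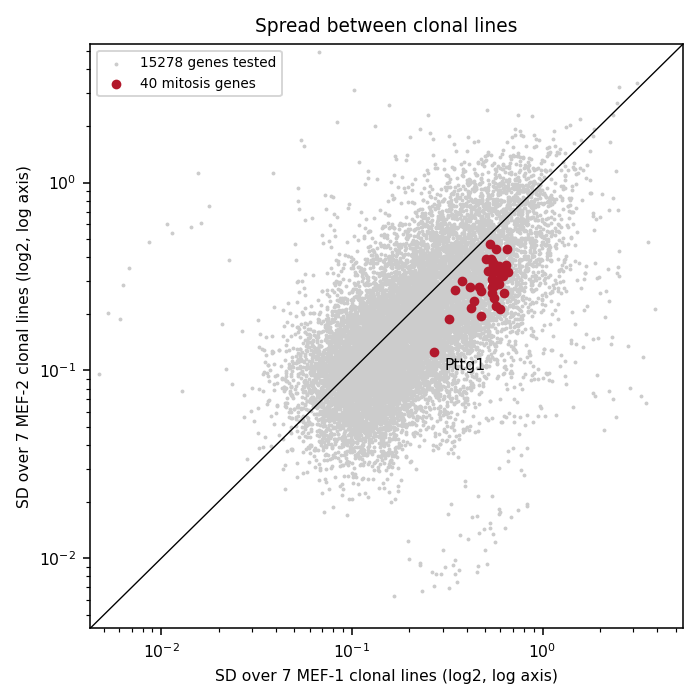
SD over the 7 MEF-1 (x) and the 7 MEF-2 (y) clonal lines (log2 scale values on log axes) for the 40 mitosis genes (red) and the 15278 genes tested (grey). All red points lie below the line of equal SD, and Pttg1 has the smallest SD of them in both sets.

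How closely the genes moved together was measured as Pearson's r between each pair over the 14 clonal lines, after the mean of each set had been taken away. Over the 780 pairs the median r was 0.957, and 83.3% of pairs had an r of at least 0.9. Over all pairs of genes tested the median was 0.005, and 0.0637% of pairs reached 0.9. The points of a pair share the library, so these values are descriptions without a p-value. The median was 0.973 in the MEF-1 lines alone, 0.957 in the MEF-2 lines alone and 0.932 without MEF-1 line 5. Pttg1 had a median r of −0.61 with the 39 others. It was −0.78 in MEF-1 alone, 0.051 in MEF-2 alone and −0.25 over the 13 lines without MEF-1 line 5, so that its opposite course rests largely on MEF-1 and on that line.

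Genes outside the lists used here were ranked by how closely they followed the median course of the mitosis genes over the 14 lines. The closest included Shcbp1 (r = 0.985), Rangap1 (0.984), the GTPase-activating protein of Ran, the kinetochore gene Cenph (0.984) and Ckap2l (0.983), a protein of the spindle. These 4 genes were higher in the MEF-2 clonal lines, by 0.59 (Rangap1) to 1.13 (Shcbp1). The 39 mitosis genes other than Pttg1 had an r between 0.877 and 0.996 with the same median course, of which they are part.

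Promoters were read from RefSeq (GRCm38.p6) as 250 bases before to 50 bases after the start of the transcript, and the table used here held them for 33 of the 40 genes. They were searched on both strands for the words TTTGAA (the cell cycle homology region, CHR), TTCGAA (a CHR variant) and CCAAT (the CCAAT box), which are known to recur in promoters of G2 and mitosis genes. The words do not contain each other, and no matches overlapped in the sequences printed. TTTGAA was found for 23 of the 33 genes (69.7%), compared with 20.2% of 27025 genes with a promoter in the table. CCAAT was found for 24 (72.7%, compared with 41.1%), both for 20 (60.6%, compared with 7.97%), and TTCGAA for 4 (12.1%, compared with 1.80%). CCAAT was also found for 65.4% of the replication genes, 59.5% of the other mitosis genes and 61.1% of the cell cycle regulators with a promoter, and TTTGAA for 15.4%, 66.7% and 27.8%. Counted once where the 2 starts of a gene share a site, there were 30 matches to TTTGAA, of which 22 began within 50 bases of a transcript start. The promoters of Cdk1, Plk1 and Mki67 are shown as genes with both words, Ccnb1 as one with CCAAT only and Pttg1 as one with none, in lower case with the matched words in capitals, read 5′ to 3′ along the gene.
Cdk1, chr10:69352863-69353162, minus strand: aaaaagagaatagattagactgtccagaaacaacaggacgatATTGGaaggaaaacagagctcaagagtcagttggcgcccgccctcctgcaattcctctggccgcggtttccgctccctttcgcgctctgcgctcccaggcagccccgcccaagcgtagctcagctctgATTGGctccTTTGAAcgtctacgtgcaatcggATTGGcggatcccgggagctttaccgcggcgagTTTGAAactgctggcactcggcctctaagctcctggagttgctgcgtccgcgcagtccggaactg
Plk1, chr7:122159185-122159484, plus strand: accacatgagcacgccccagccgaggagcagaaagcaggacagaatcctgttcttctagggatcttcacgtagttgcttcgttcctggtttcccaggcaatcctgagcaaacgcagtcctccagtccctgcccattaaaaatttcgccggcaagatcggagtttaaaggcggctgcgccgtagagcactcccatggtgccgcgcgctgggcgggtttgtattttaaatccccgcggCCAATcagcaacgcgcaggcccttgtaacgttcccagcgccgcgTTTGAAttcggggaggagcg
Mki67, chr7:135716330-135716629, minus strand: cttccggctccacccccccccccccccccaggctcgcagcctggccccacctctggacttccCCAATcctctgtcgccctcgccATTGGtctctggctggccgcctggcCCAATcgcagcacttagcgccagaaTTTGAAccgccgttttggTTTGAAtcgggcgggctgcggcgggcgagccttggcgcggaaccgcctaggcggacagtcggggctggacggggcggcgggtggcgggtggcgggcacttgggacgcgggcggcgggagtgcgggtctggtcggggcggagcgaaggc
Ccnb1, chr13:100786437-100786736, minus strand: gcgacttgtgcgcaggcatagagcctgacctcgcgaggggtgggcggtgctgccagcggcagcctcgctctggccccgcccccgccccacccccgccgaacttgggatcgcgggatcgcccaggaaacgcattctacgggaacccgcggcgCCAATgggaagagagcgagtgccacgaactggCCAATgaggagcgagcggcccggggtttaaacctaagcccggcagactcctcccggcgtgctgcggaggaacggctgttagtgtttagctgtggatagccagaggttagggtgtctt
Pttg1, chr11:43425932-43426231, minus strand: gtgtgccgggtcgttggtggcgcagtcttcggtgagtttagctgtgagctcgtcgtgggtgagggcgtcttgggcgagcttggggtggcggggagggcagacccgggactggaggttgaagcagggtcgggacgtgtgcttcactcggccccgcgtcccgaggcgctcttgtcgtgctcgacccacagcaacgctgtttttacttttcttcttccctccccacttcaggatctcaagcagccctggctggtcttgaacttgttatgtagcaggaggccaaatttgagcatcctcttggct
With −1 as the last base before the transcript start, the matches to TTTGAA began at −71 and −15 for Cdk1 and at −116 and −98 for Mki67. The window of Pttg1 follows a RefSeq start that lies 270 bases inside the gene as GENCODE gives it, so that the outermost start is not in the window. The GENCODE starts of Kif2c and Mad2l1 are also outside their windows. The RefSeq start lies inside the gene for Kif2c and before it for Mad2l1. The windows are descriptions of sequence, and binding to them was not measured.

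**Figure D4:**
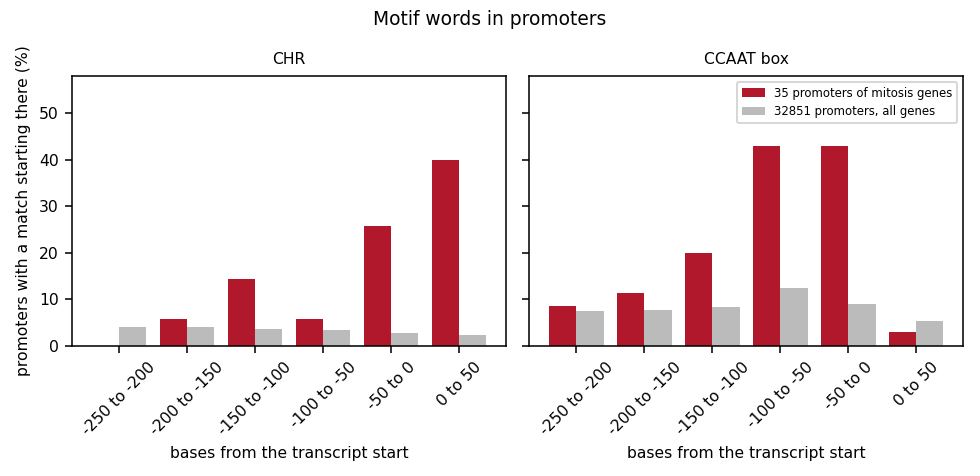
Share of promoters (%) in which a match to TTTGAA (left, CHR) or CCAAT (right) begins in each window of 50 bases, as distance from the transcript start, for 35 promoters of 33 mitosis genes (red, of which 2 genes have 2 starts each) and 32851 promoters of all genes (grey). TTTGAA was most frequent after the start (40% of mitosis promoters, 2.25% of all) and CCAAT in the 100 bases before it.

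The next comparison set the parental lines beside their clones, with 1 library each and hence without a test. The MEF-1 parental line was above all 7 of its clonal lines for 39 of the 40 genes (20.2% of all genes tested), below all of them for 0 (20.8%) and within their range for Pttg1. Its distance to the clonal mean had a median of 1.23, compared with −0.0196 over all genes. Mki67 was at 14.36 in the MEF-1 parental line, 0.08 above line 5. Plk1 was at 11.97, 0.20 above line 5, and Cdc25c at 9.73, 0.81 above it.

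The MEF-2 parental line was above its 7 clonal lines for 3 genes (15.8% of all genes), below them for 1 (18.5%) and within their range for 36. Without MEF-2 line 7, the highest of the set, it was above the others for 13. Its distance to the clonal mean had a median of 0.23. Mki67 was at 14.56, Plk1 at 12.02 and Cdc25c at 9.88 in this line. Between the parental lines, MEF-2 minus MEF-1 ran from −0.51 for Spc25 to 0.32 for Kif20a. The median was −0.075, compared with −0.00997 over all genes tested, and 14 of 40 genes were higher in MEF-2. The MEF-1 parental line lay within the range of the MEF-2 clonal lines for 23 genes, above it for 16 and below it for 1. Shares over all genes were not taken for these counts or for the count without line 7.

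The genes of 4 further lists were followed in the same fit. Of 50 other mitosis genes, 44 were higher in MEF-2, 0 were lower and 6 were not called, with a median difference of 0.91. The largest were Ncapg2, a condensin II subunit (1.53, standard error 0.19, chromosome 12), Ska1, a kinetochore protein (1.48, 0.23, chromosome 18), the kinase Melk (1.26, 0.22) and the kinesin Kif15 (1.25, 0.20). With the chromosome medians taken away, Ncapg2 differed by 0.94 and Ska1 by 1.20. Of 32 genes of DNA replication, which act in the S phase before mitosis, 29 were higher in MEF-2, 0 were lower and 3 were not called, with a median of 0.64. Rrm2, a subunit of ribonucleotide reductase on chromosome 12, differed by 1.86 (standard error 0.21) and by 1.27 with the chromosome median taken away. Orc1 of the origin recognition complex differed by 1.31, the chromatin assembly factor gene Chaf1b by 1.16 and the loading factor Cdc6 by 1.16. Of the 14 core subunits of the anaphase-promoting complex, which are present throughout the cell cycle, 3 were higher in MEF-2, 3 were lower and 8 were not called, with a median of 0.057. The called subunits with the largest differences were Cdc23 (0.44, chromosome 18), Cdc16 (0.34), Anapc13 (−0.33) and Cdc26 (−0.30). With the chromosome median taken away, Cdc23 differed by 0.16.

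The mitosis genes and the other mitosis genes ranked the lines alike, and the replication genes had a narrower range. In MEF-1 line 1 the median deviation from the average of all 14 clones was −1.18 for the mitosis genes, −1.11 for the other mitosis genes, −0.53 for replication and −0.093 for the anaphase-promoting complex. In line 5 it was 0.50, 0.36, 0.19 and −0.0031.

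**Figure D5:**
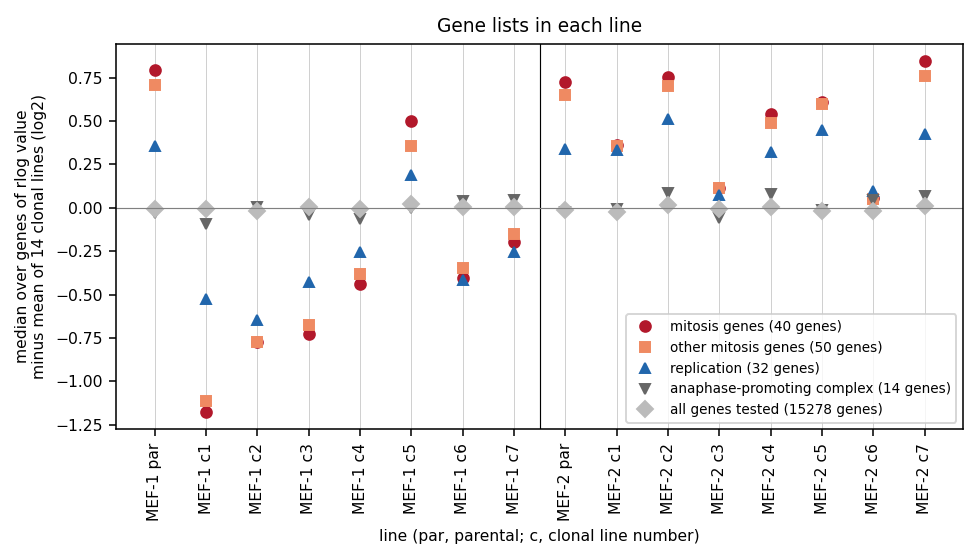
Median over the genes of a list of the deviation of the rlog value from the average of all 14 clones (y, log2) in each line (x). The mitosis genes run from −1.18 in MEF-1 clonal line 1 to 0.84 in MEF-2 clonal line 7, and the subunits of the anaphase-promoting complex and all genes tested stay near 0 in every line.

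Of 25 regulators of the cell cycle, 13 were higher in MEF-2, 6 were lower and 6 were not called. The inhibitors of cyclin-dependent kinases did not move one way. Cdkn1c (p57) was at 12.77 ± 0.86 (SD, n = 7) in MEF-1 and 7.71 ± 0.43 in MEF-2, a difference of −5.05 (standard error 0.33, adjusted p = 1.25e-08, limma). Cdkn2a, which encodes p16 and p19Arf, and its neighbour Cdkn2b (p15) were also lower in MEF-2, with differences of −2.21 and −1.95. Cdkn1a (p21), a target of p53, was higher in MEF-2, at 12.20 ± 0.40 compared with 9.59 ± 0.53, a difference of 2.61 (standard error 0.23, adjusted p = 2.52e-07). In MEF-1 lines 1 and 5, the extremes for the mitosis genes, Cdkn1a was at 9.71 and 9.57, Cdkn2a at 13.29 and 13.33, and Cdkn1c at 13.53 and 12.99. Mybl2, the B-Myb subunit of the complex that activates G2 genes, was named after its value had been seen and differed by 1.17 (standard error 0.25, adjusted p = 0.00098, limma), with 8.44 in line 1 and 10.02 in line 5. Other regulators named in this way were E2f1, lower in MEF-2 (−0.78), Trp53 and Rb1, higher (0.95 and 0.44), and Ccnd1, not called (−0.16).

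Chromosomes 12, 18 and 19 are aneuploid in some lines by the study's account, and 4 of the 40 genes lie on them. For 416 genes of chromosome 18, the median deviation from the average of all 14 clones was −0.46, −0.49 and −0.42 in MEF-1 lines 1, 4 and 5 and between 0.041 and 0.16 in the other 11 clonal lines. Cdc25c and Kif20a, the only genes of the 40 without overlap between the sets, are both on this chromosome. With the median of each chromosome taken away from each line, Cdc25c differed by 1.02 (standard error 0.23) and Kif20a by 1.00 (0.20), and both were still called (adjusted p = 0.00166 and 0.000801, limma). For 531 genes of chromosome 19 the median was higher in the MEF-1 clonal lines (0.139 or more) than in the MEF-2 clonal lines (−0.137 or less). Incenp and Kif11, on this chromosome, differed by 0.84 (standard error 0.17) and 0.96 (0.21) with the medians taken away, compared with 0.48 and 0.59 before (adjusted p = 0.00071 and 0.00121). None of the 40 genes lies on chromosome 12.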

How the data were processed

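Total RNA libraries (rRNA-depleted, directional) of 16 MEF lines were sequenced by the authors, who trimmed the reads (Trim Galore 0.6.0), quantified transcripts with Salmon 1.5.2 on mm10 and deposited log2 values from the rlog transformation of DESeq2 1.24.0, 1 per gene and line. No counts were used, so depth is unknown and no counting interval is given. How transcripts were summed to genes, and the strand setting, are not given in the sources used here, and 7 of the 40 genes overlap an expressed protein-coding gene on the other strand (Ccna2, Cdc25b, Cdc20, Nusap1, Kif20a, Prc1 and Ncapg) and Foxm1 one on its own. Of the identifiers, 54130 of 54453 were found in GENCODE M21 (21810 protein-coding). Genes were tested when protein-coding with an average over 16 lines above 0.

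MEF-2 and MEF-1 clonal lines (7 each) were compared with limma 3.58.1 (R 4.3.3, trended eBayes, two-sided), with calls at a Benjamini-Hochberg adjusted p under 0.05 over all 15278 genes. Parental lines were described without a test. The script was tested on simulated data. The gene lists, motifs and the rule for genes named were chosen with earlier results of these data known. The lowest, median and highest clonal values of each set were given by rule for some genes. These were the gene with the largest difference and the one with the widest range in each role group, and genes on chromosomes 12, 18 and 19. Up to 4 called genes with the largest difference were named from each further list, and up to 5 outside the lists with the highest r to the median course. One of these is not reported here. Pttg1, Cenpa, Spc25, Mybl2, E2f1, Trp53, Rb1 and Ccnd1 were given values after these had been seen. Python 3.11.15 (pandas 2.3.3, numpy 2.4.6, matplotlib 3.10.9) was used for tables and figures. Bisulfite data were not analysed here.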

Additional observations from a re-analysis of the deposited data

Results flagged for a closer look

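Among the 80 sets of 7 clonal lines (40 genes in MEF-1 and in MEF-2), 1 had a line whose gap to the nearest other, divided by the whole range, was above Dixon's 95% critical value for 7 values, while chance gives about 1 in 20, or 4. It was Spc25, a subunit of the Ndc80 complex, in MEF-1 clonal line 5, at 10.56 with the next line at 9.81 and a gap of 0.569 of the range. Line 5 was also the highest of its set for 38 other mitosis genes.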

How the results depend on the processing

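None of the 40 genes changed direction under the 23 alternatives run for each, and 35 kept their call under all of them. A further alternative, not among the 23, also required a difference of at least 0.5. Under it 37 were called, without Pttg1, Cdk1 and Incenp. The median difference ran from 0.80 (without MEF-1 line 1) to 1.10 (without MEF-1 line 5) with 1 line left out, and from 0.79 to 0.97 otherwise. The count of all genes called was 8569, from 8022 to 8669 with 1 line left out, and 4565 with that added limit. The labels give both sets the clone numbers 1 to 7, but a number stands for unrelated cells in each, and the deviations of the same-numbered clones had an r of −0.133 to 0.199, with 1 of 7 correlating best with its own number. With the number as a replicate block, 40 genes of the 40 and 8222 of all genes were called. The spread of the mitosis genes in MEF-1 had a median SD from 0.365 (without line 5) to 0.602 with 1 line left out. The MEF-2 parental line was outside the range of its clonal lines for 4 genes, and for 4 to 14 with 1 line left out, the most without line 7. The sets did not overlap for 2 genes, or for 31 without MEF-1 line 5, a choice made after seeing the data. The cause of these changes was not tested. Without counts, the depth behind each value stays unknown.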
